A study of Caenorhabditis elegans with 12 samples.

Results

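The 10 genes described here belong to the unfolded protein response of the endoplasmic reticulum (ER) in *Caenorhabditis elegans*. They were chosen by name from the 46739 genes of the deposited count table, and all 10 were found and passed the filter on low counts in both comparisons. Whole-body RNA from L4 larvae, each library from pooled worms, was sequenced in 2 sets, called experiments here, with 3 libraries per strain. The labels mark the second set only as batch2 and do not say in what the batches differed. Experiment 1 held wild-type N2 worms and *atfs-1(null)* worms, which lack the whole *atfs-1* open reading frame. Experiment 2 held other wild-type N2 worms and *atfs-1(et18)* worms, in which an amino acid substitution in the mitochondrial targeting sequence of ATFS-1 keeps the mitochondrial unfolded protein response switched on. The labels give N2 as the background of both mutants, and both develop slowly according to the study. ATFS-1 is a transcription factor of the mitochondrial response, and the question put to these data is how far the transcripts of the separate ER response differed in worms without it or with it constitutively active.

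The ER response works through 3 sensors in the ER membrane. IRE-1 removes an intron from the *xbp-1* mRNA so that the active transcription factor XBP-1 is made, PEK-1 (the worm PERK) phosphorylates the initiation factor eIF2-alpha, and ATF-6 is a membrane-bound transcription factor released by cleavage. Their outputs include the BiP chaperones HSP-3 and HSP-4, the GRP94 chaperone ENPL-1, the calcium-binding lectin chaperone calreticulin (CRT-1) and the protein disulfide isomerases PDI-1 and PDI-2. Counts per gene do not separate spliced from unspliced *xbp-1* mRNA, and kinase activity and cleavage are not seen in transcript levels, so the values below are total transcript levels.

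On the genome assembly WBcel235 the members lie on 5 chromosomes. *hsp-3* (WBGene00002007) spans positions 6089028 to 6092124 of chromosome X on the minus strand, and its paralog *hsp-4* (WBGene00002008) spans 7350119 to 7352636 of chromosome II, also on the minus strand. *enpl-1* (WBGene00011480) lies on chromosome IV from 11119344 to 11123154 on the plus strand, and *crt-1* (WBGene00000802) on chromosome V from 6098993 to 6100553 on the minus strand. *pdi-1* (WBGene00003962) occupies 3699719 to 3701476 of chromosome III on the minus strand, and *pdi-2* (WBGene00003963) 4524187 to 4526536 of chromosome X on the plus strand. Of the sensors, *ire-1* (WBGene00002147) is at 8112266 to 8124840 of chromosome II on the minus strand, *pek-1* (WBGene00003970) at 11410181 to 11414811 of chromosome X on the minus strand, and *atf-6* (WBGene00000222) at 12480948 to 12484879 of chromosome X on the plus strand. *xbp-1* (WBGene00006959) is at 4193821 to 4195356 of chromosome III on the plus strand. All 10 are protein-coding and reads were counted over their exons. An opposite-strand neighbour covers 3.83% of the exon bases of *crt-1* (*smut-1*) and 0.88% of those of *enpl-1* (*spo-11*). Whether the counting used strand is not given in the sources used here, nor is the treatment of reads that match both BiP paralogs.

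Library totals ranged from 24090660 to 37050803 counts, and the members had between 418 and 121401 counts in a library. Levels are given as CPM, the count of a gene scaled by library total and TMM factor within an experiment. Tests are edgeR's quasi-likelihood test of a mutant against the wild type of its own experiment, with p-values adjusted by Benjamini-Hochberg over all genes tested and a threshold of 0.05. The targeted gene followed the label of *atfs-1(null)*, where *atfs-1* had 0.803, 0.632 and 0.562 CPM against 47.3, 41.3 and 49.1 CPM in its wild type. In *atfs-1(et18)* it had 86.4, 96.8 and 88.3 CPM against 75.7, 61.2 and 62.5 CPM, and counts per gene do not show the substitution itself. The rise in *atfs-1(et18)* (log2 fold change 0.44, adjusted p = 0.0385) did not pass with the replicate block (0.0503), without a filter (0.0522), or without wild-type replicate 2 or 3 or *atfs-1(et18)* replicate 1 or 3 (0.0755 to 0.15). The mitochondrial chaperone gene *hsp-6*, a standard reporter of the mitochondrial response, fell in *atfs-1(null)* (log2 fold change -1.08) and rose in *atfs-1(et18)* (1.39). Within their groups, replicate 3 of *atfs-1(null)* and replicate 2 of *atfs-1(et18)* stood apart: their counts differed from the other libraries of the group with a chi-square per degree of freedom of 115 to 147, against 10.1 to 37.4 for all other pairs. Markers of all the tissues examined were detected in every group. The study describes the 3 replicates of a strain as biologically independent, while the labels call them only repeats.

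In the *atfs-1(null)* worms the members changed in both directions. Transcripts of 5 of the 6 folding genes fell by 1.61-fold to 3.64-fold, as did those of the sensors *pek-1* and *atf-6*, by 1.49-fold and 1.85-fold, while *hsp-4*, *xbp-1* and *ire-1* rose by 1.43-fold, 1.26-fold and 1.32-fold. All 10 members passed the test, 3 higher and 7 lower, and for all 10 the libraries of the groups lay wholly apart. In this comparison 68.3% of all 15620 genes tested passed, 32.9% higher and 35.4% lower, and 74.2% had groups that did not overlap. The median log2 fold change of the members was -0.79, beside -0.04 over all genes tested, whose quartiles were -0.81 and 0.97. The rises of *hsp-4*, *xbp-1* and *ire-1* and the falls of *pdi-1* and *pek-1* lay between these quartiles.

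*hsp-3*, the more abundant BiP gene, had 2428, 2514 and 2740 CPM in the wild-type libraries and 917, 782 and 754 CPM in *atfs-1(null)*. Every *atfs-1(null)* library was far below the lowest wild-type library. Mean levels of 2561 ± 161 and 818 ± 87.4 CPM (SD, n = 3) gave a log2 fold change of -1.65 ± 0.10 (SE, adjusted p = 0.000177). The stress-inducible BiP gene *hsp-4*, which is used as the standard reporter of the IRE-1 branch, moved the other way. It had 251, 270 and 220 CPM in wild type and 346, 360 and 355 CPM in *atfs-1(null)*, so the mutant libraries lay close together and all above wild type. The rise from 247 ± 25.0 to 354 ± 7.19 CPM (SD, n = 3) was 0.52 ± 0.10 on the log2 scale (SE, adjusted p = 0.00325), and it passed the test under all alternatives run, with adjusted p between 0.000125 and 0.0164.

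The other chaperones followed *hsp-3*. *crt-1* had 3368, 3438 and 4004 CPM in wild type and 1404, 1331 and 1290 CPM in *atfs-1(null)*, a fall of 2.69-fold (log2 fold change -1.43 ± 0.09, adjusted p = 0.000177). *enpl-1* was the most even of the members among the wild-type libraries, at 1174, 1157 and 1161 CPM. In *atfs-1(null)* it had 566, 520 and 550 CPM, which is 2.13-fold lower (log2 fold change -1.09 ± 0.07, adjusted p = 0.000178). For both genes the mutant libraries were all at less than the lowest wild-type value, with no overlap.

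The disulfide isomerases fell unequally. *pdi-2*, whose product also serves as a subunit of the collagen prolyl 4-hydroxylase of the worm, had 3688, 4077 and 4000 CPM in wild type. It had 1278, 1061 and 893 CPM in *atfs-1(null)*, the largest fall among the 10 members (3.64-fold, log2 fold change -1.86 ± 0.13, adjusted p = 0.000188). *pdi-1*, another isomerase gene, had 606, 663 and 622 CPM in wild type and 398, 384 and 391 CPM in *atfs-1(null)*. Here too all mutant libraries were below all wild-type libraries, but the fall was smaller (1.61-fold, log2 fold change -0.69 ± 0.08, adjusted p = 0.000427). On the RPKM scale, which divides by exon length, the ratio of *pdi-2* to *pdi-1* was 5.26, 5.31 and 5.56 in wild type and 2.77, 2.39 and 1.97 in *atfs-1(null)*. These ratios are given as a description, with no test. Together the 6 folding genes took 1.07%, 1.12% and 1.14% of all counts in the wild-type libraries and 0.547%, 0.491% and 0.444% in *atfs-1(null)*.

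The sensors did not move together. *ire-1* had 102, 98.4 and 96.2 CPM in wild type and 115, 122 and 156 CPM in *atfs-1(null)*, with replicate 3 of the mutant well above the others. Its log2 fold change was 0.40 ± 0.13 (adjusted p = 0.029), and without that replicate it was 0.25 (adjusted p = 0.0212). *pek-1* had 64.0, 52.8 and 54.6 CPM in wild type and 43.7, 35.4 and 36.0 CPM in *atfs-1(null)*, a log2 fold change of -0.58 ± 0.14 (adjusted p = 0.00753). *atf-6*, the least abundant member per exon length, had 26.4, 24.3 and 30.4 CPM in wild type and 15.5, 14.5 and 13.9 CPM in *atfs-1(null)* (log2 fold change -0.89 ± 0.14, adjusted p = 0.0015). For the transcription factor gene *xbp-1*, the libraries had 282, 237 and 276 CPM in wild type and 352, 356 and 296 CPM in *atfs-1(null)*. The groups did not overlap, although replicate 3 of the mutant lay nearer to wild type than to the other mutant libraries, and the log2 fold change was 0.34 ± 0.11 (adjusted p = 0.0326).

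The rises of *xbp-1* and *ire-1* were the least secure of these calls. *xbp-1* did not pass when any library of experiment 1 other than replicate 3 of *atfs-1(null)* was left out (adjusted p 0.0615 to 0.124), and *ire-1* did not pass without any 1 of the 3 wild-type libraries or replicate 2 of *atfs-1(null)* (0.051 to 0.0951). Scaling by library size alone moved the median of all genes in *atfs-1(null)* from -0.04 to 0.21 and the calls over all genes from 5134 higher and 5530 lower to 6244 higher and 4190 lower. With that scaling 9 of the members passed, 3 higher and 6 lower, and *pek-1* did not (log2 fold change -0.33, adjusted p = 0.0768). No member changed sign under any alternative in *atfs-1(null)*.

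**Figure D1:**
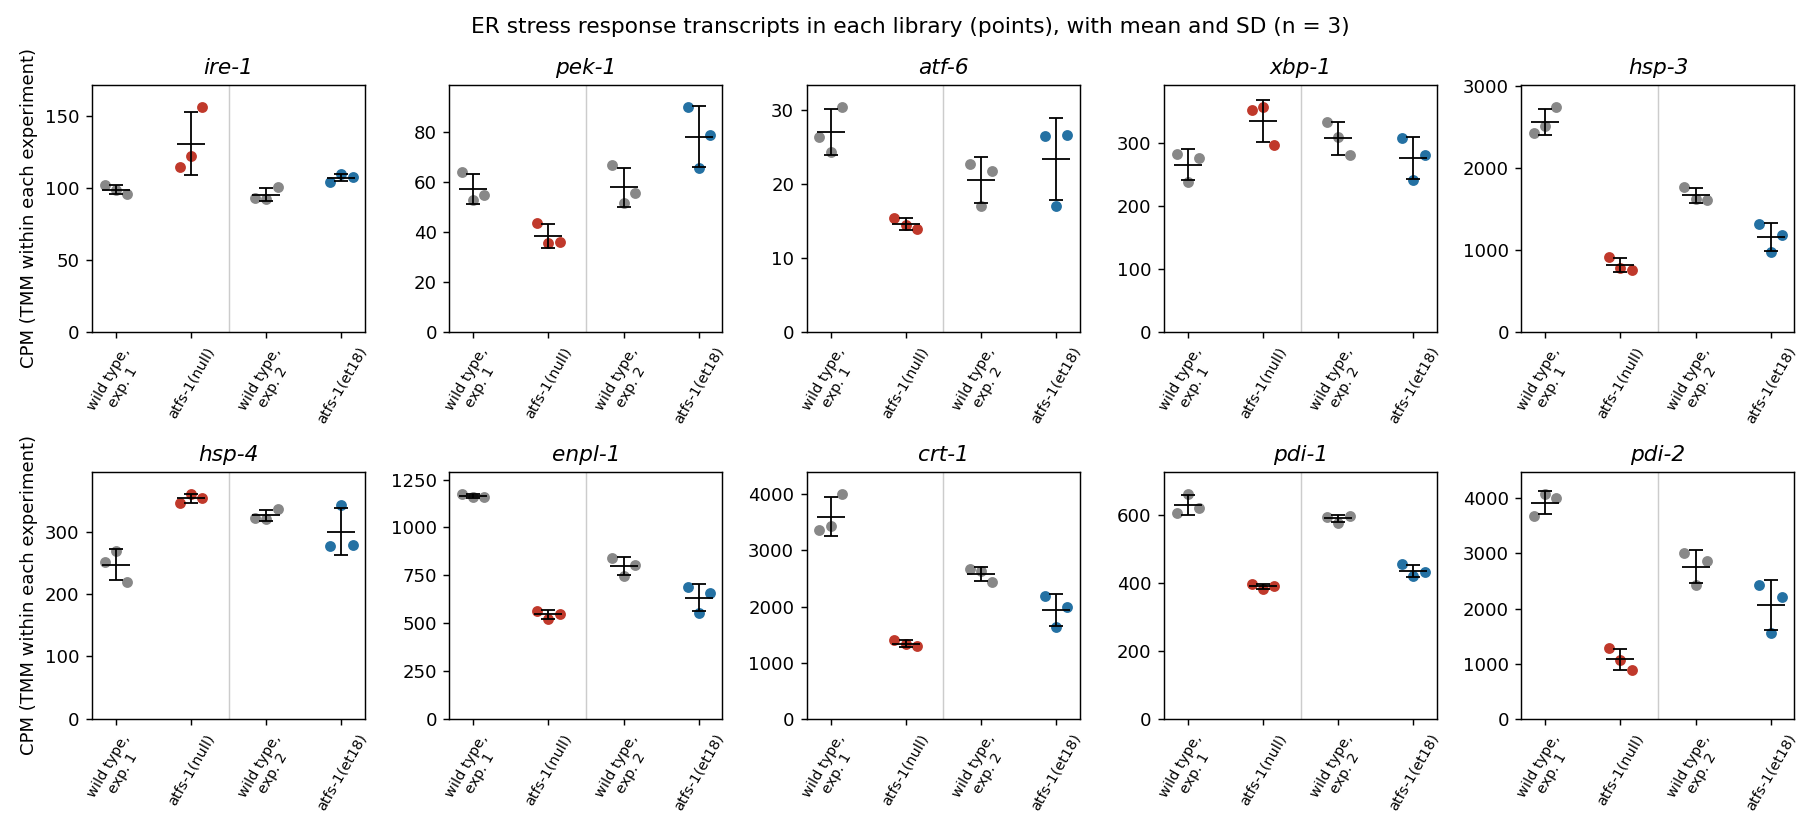
Transcript level (CPM, TMM-scaled within each experiment, linear axes from 0) of the 10 ER response genes in every library, grouped by strain and experiment. Points are libraries, and the black bars are the mean and SD of 3 libraries. In *atfs-1(null)* the 5 folding genes *hsp-3*, *enpl-1*, *crt-1*, *pdi-1* and *pdi-2* lie wholly below wild type and *hsp-4* wholly above it (346 to 360 against 220 to 270 CPM), while in *atfs-1(et18)* the gaps are smaller and replicate 2, the middle point, often stands apart.

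Tissue and stage markers moved in the same comparison. In *atfs-1(null)* the germline markers *glh-1* and *pgl-1* were both higher (summed level 755 to 1050 CPM against 246 to 469 CPM in wild type), as were 4 of 4 oocyte genes (1010 to 2100 against 42.3 to 117 CPM), 27 of 28 tested sperm *msp* genes (596 to 1440 against 68.8 to 166 CPM) and 6 of 6 yolk protein genes (11100 to 31300 against 696 to 2240 CPM). Lower were the intestine markers *ges-1* and *elt-2* (70.0 to 84.1 against 169 to 185 CPM), the neuron markers *rab-3* and *unc-104* (44.4 to 50.2 against 72.4 to 90.2 CPM), the body-wall muscle markers *unc-54* and *myo-3* (3310 to 4270 against 6010 to 6150 CPM) and the larval epidermis marker *dpy-7* (29.7 to 67.1 against 238 to 295 CPM). None of these markers was at 0 in any group apart from *msp-58* in the wild type of experiment 1 and *msp-79* in that of experiment 2. Their part in the falls of the folding genes and in the rise of *hsp-4* was not tested, and in whole worms fewer cells of a type and less RNA per cell cannot be told apart.

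The BiP paralogs can be compared within a library, where scaling cancels. The ratio of *hsp-4* to *hsp-3* RPKM was 0.125, 0.130 and 0.0972 in the wild-type libraries and 0.457, 0.558 and 0.570 in *atfs-1(null)*. The mean thus went from 0.117 ± 0.0176 to 0.528 ± 0.0621 (SD, n = 3), with an exact two-sided permutation p of 0.1, the smallest that 3 libraries against 3 can give. The mean log2 ratio differed by 2.17, or 4.51-fold, and by 2.04 to 2.27 when single libraries were left out. In experiment 2 the ratio was 0.220, 0.239 and 0.253 in wild type and 0.255, 0.425 and 0.285 in *atfs-1(et18)*. No *atfs-1(et18)* library was as low as wild type, but replicate 1 was only just above it, and replicate 2 stood apart. The mean log2 ratio differed by 0.41, or 1.32-fold (exact two-sided permutation p = 0.1, again the smallest possible), and by 0.19 without replicate 2 of *atfs-1(et18)*. The wild types of the experiments themselves differed in this ratio, at 0.117 ± 0.0176 and 0.237 ± 0.0167 (SD, n = 3).

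**Figure D2:**
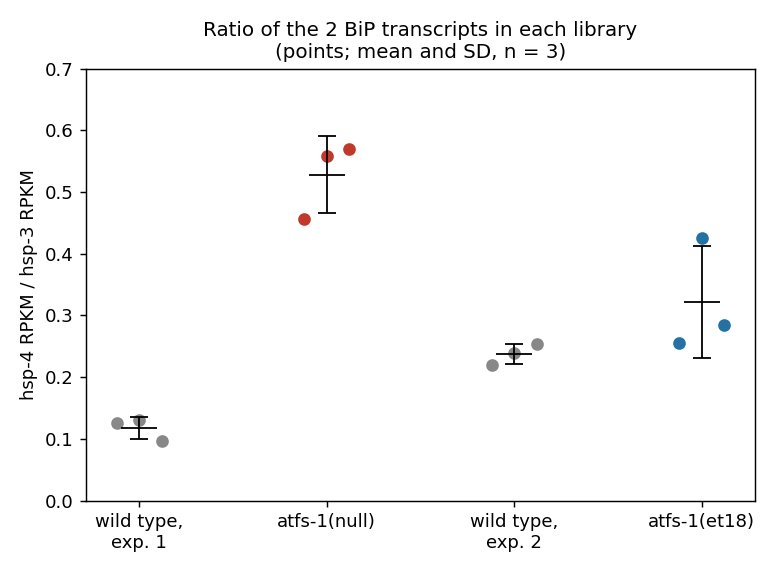
Ratio of *hsp-4* to *hsp-3* transcript level (RPKM over RPKM, linear axis from 0) in each library of the 4 groups. Points are libraries and the black bars are the mean and SD of 3 libraries. The *atfs-1(null)* libraries lie between 0.457 and 0.570, above all 9 others, and replicate 2 of *atfs-1(et18)*, at 0.425, lies apart from the other libraries of its group.

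The *atfs-1(et18)* worms differed less from their wild type. Of the 10 members 2 passed the test, *hsp-3* and *pdi-1*, which fell by 1.44-fold and 1.35-fold. No member passed as higher with edgeR or with DESeq2, and 1, *pek-1*, had an unadjusted p under 0.05 in that direction. Over all 15639 genes tested in this comparison 16.9% passed, 9.42% higher and 7.51% lower. DESeq2 called 2074 of 17478 genes higher and 1682 lower. The libraries of the groups did not overlap for 5 of the 10 members, against 42.5% of all genes tested. The median log2 fold change of the members was -0.25, beside 0.07 over all genes.

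*hsp-3* had 1772, 1625 and 1605 CPM in the wild type of experiment 2 and 1319, 978 and 1183 CPM in *atfs-1(et18)*, all below wild type (log2 fold change -0.52 ± 0.12, adjusted p = 0.0327). *pdi-1* had 595, 579 and 599 CPM in wild type and 456, 420 and 432 CPM in *atfs-1(et18)*, with tight groups that lay well apart (log2 fold change -0.44 ± 0.07, adjusted p = 0.00949). Both calls were lost in some fits with a single library left out, which also have fewer samples. *hsp-3* did not pass without any 1 of the wild-type libraries or without replicate 3 of *atfs-1(et18)* (adjusted p 0.0833 to 0.13), and *pdi-1* did not pass without wild-type replicate 1 or 3 or *atfs-1(et18)* replicate 3 (0.0552 to 0.0554). When single libraries were left out, the log2 fold change stayed between -0.64 and -0.41 for *hsp-3* and between -0.49 and -0.41 for *pdi-1*.

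The other folding genes had lower means in *atfs-1(et18)* but missed the threshold in this test. *crt-1* had 2668, 2627 and 2435 CPM in wild type and 2180, 1629 and 1996 CPM in the mutant, without overlap (log2 fold change -0.41 ± 0.12, adjusted p = 0.0606). It passed with DESeq2 (-0.43, adjusted p = 0.0462), with library size scaling (-0.40, adjusted p = 0.041) and with all 12 libraries in 1 fit (-0.41, adjusted p = 0.0258). *enpl-1* had 843, 747 and 803 CPM against 689, 553 and 655 CPM, also without overlap (-0.33 ± 0.10, adjusted p = 0.074), and passed with all 12 libraries in 1 fit (adjusted p = 0.0309). *pdi-2* had 3012, 2422 and 2856 CPM against 2424, 1562 and 2206 CPM, where replicate 1 of *atfs-1(et18)* and replicate 2 of wild type met (-0.42 ± 0.18, adjusted p = 0.149). For *hsp-4* the values were 322, 321 and 336 CPM in wild type and 278, 343 and 279 CPM in *atfs-1(et18)* (-0.12 ± 0.10, adjusted p = 0.438). Replicate 2 of the mutant had the highest *hsp-4* level of its group and the lowest level of *hsp-3*, *crt-1*, *enpl-1*, *pdi-1* and *pdi-2*. The 6 folding genes took 0.898%, 0.827% and 0.879% of all counts in wild type and 0.716%, 0.558% and 0.689% in *atfs-1(et18)*, again lowest in replicate 2.

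None of the sensors or *xbp-1* passed in *atfs-1(et18)* with edgeR. *pek-1* had 66.5, 51.6 and 55.4 CPM in wild type and 89.7, 65.6 and 78.8 CPM in the mutant (log2 fold change 0.43 ± 0.15, adjusted p = 0.0962), with overlap at the lower end of the mutant. *ire-1* had 93.0, 92.5 and 101 CPM against 104.4, 110 and 108 CPM, without overlap (0.17 ± 0.07, adjusted p = 0.155). *atf-6* had 22.8, 17.0 and 21.8 CPM against 26.5, 17.1 and 26.7 CPM, where replicate 2 was the low library in both groups (0.19 ± 0.21, adjusted p = 0.569). *xbp-1* had 332, 308 and 280 CPM against 307, 240 and 280 CPM, with overlapping groups (-0.16 ± 0.12, adjusted p = 0.381). DESeq2 called 0 of these 4 genes, and *pek-1* was the only 1 with an unadjusted p under 0.05.

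In experiment 2 the libraries with the same replicate number deviated together for replicates 1 and 2 (correlation across genes 0.55 and 0.46). Replicate 3 of *atfs-1(et18)* did so more with wild-type replicate 1 (0.35) than with its own number (0.11). A fit with the replicate number as a block called 6 members in *atfs-1(et18)*, 1 higher and 5 lower. Over all 15639 genes tested the block called 1674 higher and 1528 lower, beside 1473 and 1175 without it. With the block *pek-1* rose (log2 fold change 0.43, adjusted p = 0.0276) and *crt-1* (-0.42, adjusted p = 0.0438), *pdi-2* (-0.44, adjusted p = 0.026) and *enpl-1* (-0.34, adjusted p = 0.0307) fell, in addition to *hsp-3* and *pdi-1*. Without replicate 2 of *atfs-1(et18)* the test without a block called 5 members, namely *pek-1* higher (0.54, adjusted p = 0.0208) and *hsp-3*, *pdi-1*, *crt-1* (-0.30, adjusted p = 0.038) and *hsp-4* (-0.23, adjusted p = 0.0324) lower. Over all 15867 genes tested in that fit, 2727 were called higher and 1797 lower. The test without a block called 0 members without wild-type replicate 1, wild-type replicate 3 or *atfs-1(et18)* replicate 3, and 1 without wild-type replicate 2. Leaving out a library also leaves fewer samples in the test.

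Some markers moved here as well. In *atfs-1(et18)* none of the 6 yolk, 4 oocyte, 28 sperm and 2 germline genes tested passed. Their summed levels in *atfs-1(et18)* and wild type were 3300 to 21900 and 1350 to 7520 CPM for yolk, 147 to 632 and 97.7 to 190 CPM for oocytes, 196 to 872 and 190 to 430 CPM for sperm, and 308 to 578 and 429 to 489 CPM for the germline. The neuron markers (59.6 to 72.8 against 77.5 to 92.7 CPM) and *dpy-7* (51.7 to 135 against 122 to 211 CPM) did not pass either. Among the intestine markers 1 of 2 was higher (summed level 155 to 219 against 125 to 137 CPM), among the body-wall muscle markers 1 of 2 was lower (4410 to 5240 against 6510 to 7720 CPM), and the pharynx marker *myo-2* was lower (92.6 to 147 against 246 to 425 CPM). Their part in the levels of the ER genes was not tested.

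**Figure D3:**
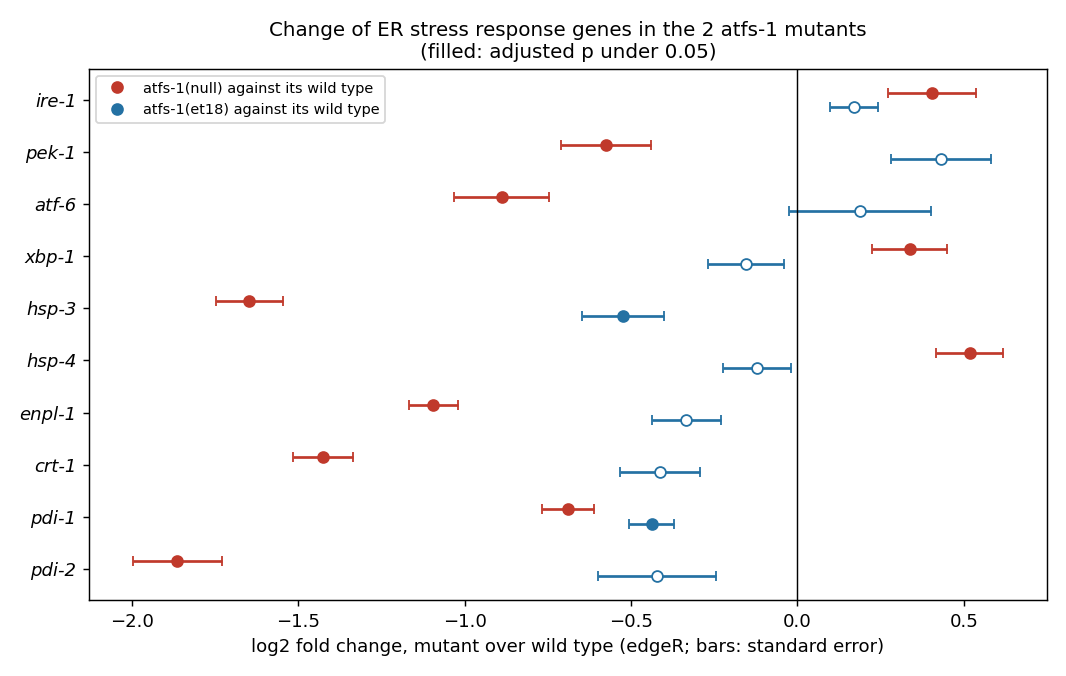
Log2 fold change of each ER response gene, mutant over the wild type of the same experiment, in *atfs-1(null)* (red) and *atfs-1(et18)* (blue). Bars are the standard error from the edgeR fit over 3 libraries per group, and filled points passed an adjusted p of 0.05. In *atfs-1(null)* all 10 are filled, from -1.86 (*pdi-2*) to 0.52 (*hsp-4*), and in *atfs-1(et18)* only *hsp-3* (-0.52) and *pdi-1* (-0.44).

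The change itself was compared between the strains with an interaction contrast over all 12 libraries, written as the log2 fold change in *atfs-1(et18)* minus that in *atfs-1(null)*. It passed for 8 of the 10 members, 6 above 0 and 2 below, where 49.0% of the 16188 genes tested passed, 26.1% above and 22.9% below. Scaling by library size alone gave 9 members, 6 above and 3 below, and turned the calls over all genes from 4220 above and 3705 below 0 to 3637 and 5069. The difference was greatest for *pdi-2* (1.41 ± 0.22, adjusted p = 0.000644) and also above 0 for *hsp-3* (1.09 ± 0.16, adjusted p = 0.000438), *crt-1* (0.97 ± 0.16, adjusted p = 0.000794) and *enpl-1* (0.72 ± 0.13, adjusted p = 0.0018). *hsp-4* was on the other side (-0.69 ± 0.15, adjusted p = 0.00347). The sensors *atf-6* (1.04 ± 0.27, adjusted p = 0.00917) and *pek-1* (0.97 ± 0.21, adjusted p = 0.00353) fell in *atfs-1(null)*, and their changes differed between the strains. *xbp-1* differed as well (-0.53 ± 0.16, adjusted p = 0.0216), though not without wild-type replicate 2 of experiment 1 (-0.44, adjusted p = 0.0646) or without wild-type replicate 1 (-0.45, adjusted p = 0.0657) or 2 (-0.52, adjusted p = 0.0533) of experiment 2. The test was missed by *ire-1* (-0.29 ± 0.19, adjusted p = 0.209) and by *pdi-1* (0.21 ± 0.11, adjusted p = 0.119), which passed without replicate 3 of *atfs-1(null)* (0.25, adjusted p = 0.0412). *ire-1* passed with scaling by library size alone (-0.47, adjusted p = 0.0179). Each mutant is in only 1 of the experiments, so strain and experiment cannot be told apart in this contrast.

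The wild types also differed between the experiments. Mean *hsp-3* was 2561 ± 161 CPM in experiment 1 and 1667 ± 91.6 CPM in experiment 2 (SD, n = 3), with *crt-1* at 3603 ± 349 and 2577 ± 125 CPM and *enpl-1* at 1164 ± 8.87 and 798 ± 48.0 CPM. *hsp-4* was at 247 ± 25.0 and 326 ± 8.29 CPM. The libraries of the wild types did not overlap for these genes or for *pdi-1*, *pdi-2* and *atf-6*, but they did for *ire-1*, *pek-1* and *xbp-1*. How often they overlapped among all genes was not counted, so the gaps are not read as particular to the members. The values are set side by side without a test because the experiments were scaled separately.

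Per exon length the members spanned more than 2 orders of magnitude in every group, and *crt-1* and *pdi-2* led everywhere. In the wild type of experiment 1 the mean RPKM was 2554 for *crt-1*, 2102 for *pdi-2*, 955 for *hsp-3*, 445 for *enpl-1*, 391 for *pdi-1*, 185 for *xbp-1* and 112 for *hsp-4*. The sensors were at the bottom, with 29.9 for *ire-1*, 15.8 for *pek-1* and 11.4 for *atf-6*, and no neighbours in this order had overlapping libraries. In *atfs-1(null)* the order narrowed in the middle. *pdi-1* (243 RPKM), *xbp-1* (234 RPKM) and *enpl-1* (208 RPKM) followed each other there, and the libraries of *pdi-1* and *xbp-1*, and of *xbp-1* and *enpl-1*, overlapped. In the wild type of experiment 2 the order was the same as in experiment 1 apart from *pdi-1* (367 RPKM) above *enpl-1* (305 RPKM), and no neighbours overlapped. In *atfs-1(et18)* the order matched its wild type, but *crt-1* overlapped *pdi-2*, *pdi-1* overlapped *enpl-1* and *enpl-1* overlapped *xbp-1*.

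Other genes of the secretory pathway were taken from 7 lists. They held 89 genes of the table, of which 86 could be tested in the comparison with *atfs-1(null)*, where 22 rose and 34 fell. For *atfs-1(et18)* 87 could be tested, of which 6 rose and 12 fell. All the counts of lists below stand against the shares over all genes tested, which were 32.9% higher and 35.4% lower in *atfs-1(null)*, and 9.42% higher and 7.51% lower in *atfs-1(et18)*. For counts with DESeq2, its calls over all genes were 5636 higher and 4922 lower of 18984 in *atfs-1(null)*. In *atfs-1(et18)* they were 2074 higher and 1682 lower of 17478. No list was tested against other genes. Scaling by library size alone gave 40 higher and 25 lower in *atfs-1(null)*, beside 6244 higher and 4190 lower among all 15620 genes, so the directions of the smaller changes below depend on the scaling.

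Of 14 further ER folding genes, 10 fell and 1 rose in *atfs-1(null)* (median log2 fold change -0.85, beside -0.04 over all genes). The falls were led by *pdi-6*, a disulfide isomerase gene (841 ± 55.9 against 244 ± 22.5 CPM, SD, n = 3, log2 fold change -1.79 ± 0.10, adjusted p = 0.000177), *dnj-7*, which encodes an ER DnaJ co-chaperone (-1.53 ± 0.11, adjusted p = 0.000185), and T14G8.3, a gene of the Hsp70 superfamily (-1.27 ± 0.11, adjusted p = 0.000252). In *atfs-1(et18)* 5 of the 14 fell (median -0.39), all 5 of which also fell in *atfs-1(null)*. They were *dnj-27* (-0.84 ± 0.22, adjusted p = 0.048), *pdi-6* (504 ± 32.5 to 301 ± 56.6 CPM, -0.74 ± 0.15, adjusted p = 0.0208), T14G8.3 (-0.57 ± 0.11, adjusted p = 0.0177), *dnj-7* (-0.55 ± 0.13, adjusted p = 0.0351) and *manf-1* (-0.40 ± 0.08, adjusted p = 0.021). Without any 1 wild-type library of experiment 2 or without replicate 3 of *atfs-1(et18)*, the first 4 of these did not pass (adjusted p 0.0513 to 0.172), and *dnj-27* also not without replicate 1 of *atfs-1(et18)* (0.0513). For *manf-1* the fits without single libraries were not examined. With the replicate block 8 of the 14 fell. The single gene that rose in *atfs-1(null)* was *uggt-2* (6.14 ± 1.62 against 14.3 ± 6.66 CPM, with overlapping groups, 1.23 ± 0.41, adjusted p = 0.03), whose paralog *uggt-1*, for the glucosyltransferase that senses misfolded glycoproteins, fell (-1.23 ± 0.10, adjusted p = 0.000208). These last 2 genes and *manf-1* are named after their values were seen.

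Proteins enter the ER through the translocation machinery. Of its 14 listed genes 11 fell in *atfs-1(null)* (median -0.62), among them *trap-2* and *trap-4* for subunits of the translocon-associated complex (-1.29 ± 0.12, adjusted p = 0.000293, and -0.92 ± 0.09, adjusted p = 0.000277) and *sec-61.B* for the beta subunit of the channel (-0.91 ± 0.10, adjusted p = 0.00037). With library size scaling 8 of the 14 fell. In *atfs-1(et18)* 3 fell, including *trap-2* (-0.61 ± 0.13, adjusted p = 0.0235) and *trap-3* (-0.41 ± 0.09, adjusted p = 0.0233), both of which did not pass without any 1 wild-type library or without replicate 3 of *atfs-1(et18)* (0.0611 to 0.107). A single gene rose, the signal peptidase subunit gene *spcs-1*, which had 57.4, 51.0 and 52.6 CPM in wild type and 83.1, 77.6 and 79.5 CPM in *atfs-1(et18)* (0.58 ± 0.08, adjusted p = 0.00705). In *atfs-1(null)* the same gene fell (-0.43 ± 0.10, adjusted p = 0.00581), although not with library size scaling (-0.18, adjusted p = 0.0955), without a filter on low counts (-0.32, adjusted p = 0.0613) or without replicate 2 of *atfs-1(null)* (-0.40, adjusted p = 0.0525).

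The machinery of ER-associated degradation returns misfolded proteins to the cytosol. Of its 16 listed genes 6 rose in *atfs-1(null)* (median 0.16), a share near the 32.9% of all genes, led by *hrdl-1* for a ubiquitin ligase, from 60.1 ± 5.69 to 120 ± 12.8 CPM (SD, n = 3, log2 fold change 0.99 ± 0.12, adjusted p = 0.000547), *ubxn-4* (0.62 ± 0.13, adjusted p = 0.00545) and the CDC-48 cofactor gene *ufd-1* (0.58 ± 0.10, adjusted p = 0.0023). With library size scaling 13 of the 16 rose. None of the 16 fell with edgeR, with DESeq2 or at an unadjusted p under 0.05. In *atfs-1(et18)* none passed with edgeR, 1 did with DESeq2 (*ufd-1*, 0.34, adjusted p = 0.038), and 3 had an unadjusted p under 0.05.

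Of 18 N-glycosylation genes, 5 were higher and 6 lower in *atfs-1(null)*, shares near those of all genes (11 and 6 with library size scaling). The higher ones were among the 13 *algn* genes for assembly of the lipid-linked glycan, with *algn-1* (1.00 ± 0.16, adjusted p = 0.00163), *algn-14* (0.88 ± 0.20, adjusted p = 0.00629) and *algn-12* (0.83 ± 0.17, adjusted p = 0.0043) in front. *algn-1* shares 35.1% of its exon bases with an opposite-strand gene. All 5 listed genes of the oligosaccharyltransferase, which moves the glycan onto proteins, fell in *atfs-1(null)* by 0.49 to 0.77 on the log2 scale, a division noticed after the values were seen. In *atfs-1(et18)* 5 of the *algn* genes rose, led by *algn-6* (0.61 ± 0.10, adjusted p = 0.00998), *algn-14* (0.52 ± 0.12, adjusted p = 0.0341) and *algn-12* (0.46 ± 0.11, adjusted p = 0.0412), and 1 oligosaccharyltransferase gene fell. With the replicate block 2 of the *algn* genes passed, and *algn-14* (adjusted p = 0.0565) and *algn-12* (adjusted p = 0.0589) did not. Nor did either pass when any library other than replicate 2 of *atfs-1(et18)* was left out (0.0611 to 0.154), and *algn-6* did not without wild-type replicate 1 or 3 or *atfs-1(et18)* replicate 3 (0.0549 to 0.0602).

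Of 9 genes for exit from the ER, 6 fell in *atfs-1(null)* (median -0.31; 3 fell with DESeq2, and 1 fell and 3 rose with library size scaling), including *tfg-1*, which acts at ER exit sites (-0.58 ± 0.08, adjusted p = 0.000987), and the COPII coat genes *sec-24.1* (-0.43 ± 0.09, adjusted p = 0.00379) and *sec-24.2* (-0.42 ± 0.09, adjusted p = 0.00496). The latter pair did not pass with library size scaling (adjusted p = 0.135 and 0.0856), and *sec-24.2* not with DESeq2 (-0.31, adjusted p = 0.0709) or without replicate 2 of *atfs-1(null)* (-0.36, adjusted p = 0.0581). In *atfs-1(et18)* *tfg-1* fell (-0.31 ± 0.08, adjusted p = 0.0483), but not when any library other than replicate 2 of the mutant was left out (0.0751 to 0.188). Among 4 further signalling genes, *atf-4*, the bZIP factor gene downstream of PEK-1, had 230, 215 and 271 CPM in wild type and 99.9, 85.4 and 88.4 CPM in *atfs-1(null)*, with no overlap (-1.39 ± 0.12, adjusted p = 0.000256). *rtcb-1*, for the RNA ligase that joins the *xbp-1* exons, had 29.5, 30.3 and 26.5 CPM against 34.1, 39.3 and 53.3 CPM, highest in replicate 3 (0.56 ± 0.18, adjusted p = 0.0283), and did not pass without any 1 wild-type library (0.0632 to 0.1). In *atfs-1(et18)* *atf-4* (-0.37, adjusted p = 0.136) and *rtcb-1* (0.34, adjusted p = 0.0817) missed the threshold with edgeR, and *rtcb-1* passed with DESeq2 (0.33, adjusted p = 0.0489).

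**Figure D4:**
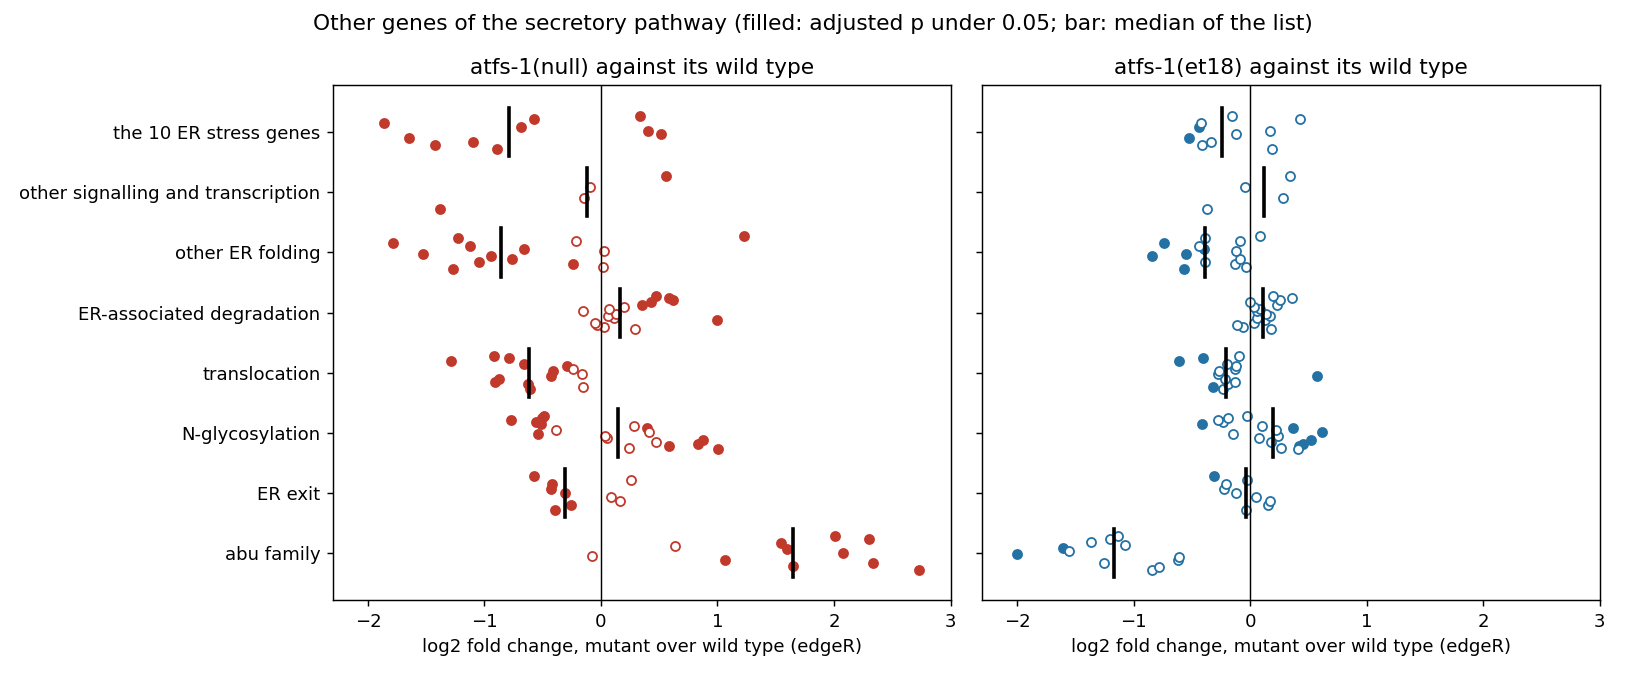
Log2 fold change (mutant over wild type, edgeR) of each tested gene of the ER response and of 7 further lists of secretory pathway genes, in *atfs-1(null)* (left) and *atfs-1(et18)* (right). Points are genes, filled where the adjusted p was under 0.05, and the black bars are list medians. In *atfs-1(null)* the median is -0.85 for further ER folding and -0.62 for translocation, but 0.16 for degradation and 1.65 for the *abu* family, which is at -1.17 in *atfs-1(et18)*.

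The *abu* genes are known as genes activated when the IRE-1 branch is blocked, and they encode repeat proteins that are also linked to the pharyngeal cuticle. Of 14 found, 11 could be tested in *atfs-1(null)*, where 9 rose (median 1.65). In *atfs-1(et18)* 12 could be tested and 2 fell (median -1.17), or 5 with DESeq2 or the replicate block. None fell in *atfs-1(null)* and none rose in *atfs-1(et18)*, with edgeR, with DESeq2 or at an unadjusted p under 0.05. Levels were low and uneven. *abu-11* had 7.41, 6.66 and 4.48 CPM in the wild type of experiment 1 and 35.3, 48.24 and 10.3 CPM in *atfs-1(null)*, lowest in replicate 3 (log2 fold change 2.34 ± 0.53, adjusted p = 0.00668). The largest rise was that of *abu-1* (2.73 ± 0.65, adjusted p = 0.00779), and *abu-7* rose by a similar amount (2.30 ± 0.56, adjusted p = 0.00884). In *atfs-1(et18)* *abu-14* had 39.9, 73.2 and 59.7 CPM against 281, 202 and 207 CPM in wild type (log2 fold change -1.998, SE 0.249, adjusted p = 0.0046), and *abu-2* was also lower (-1.61 ± 0.32, adjusted p = 0.0202), though not without any 1 wild-type library or replicate 3 of *atfs-1(et18)* (0.0595 to 0.0842). *abu-2* shares 37.4% and *abu-1* 10.7% of their exon bases with opposite-strand genes. The wild types lay far apart, as *abu-11* had 45.0, 46.9 and 28.9 CPM in that of experiment 2, without overlap with that of experiment 1. These genes resemble each other in sequence, so their separate counts are uncertain. The pharynx marker *myo-2* was also lower in *atfs-1(et18)*, as given above, but had 73.7 to 229 CPM in *atfs-1(null)* against 152 to 239 CPM in wild type. Its part in the *abu* levels was not tested.

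The genes whose pattern was most like that of *hsp-4* were found by Pearson's r of log2 CPM over the 12 libraries, as deviations from the mean of each experiment's wild type, among 11181 genes with sufficient expression. They were T08B2.11 (r = 0.996), *rpl-11.1* (0.995), T12F5.2 (0.995), C48B4.10 (0.992) and *fbf-1* (0.988), the last a gene for an RNA-binding protein of germline stem cells. Their changes in *atfs-1(null)* were larger than that of *hsp-4*, for example 1.35 for *rpl-11.1* (340 ± 90.6 to 864 ± 59.3 CPM, SD, n = 3, adjusted p = 0.000957) and 1.13 for *fbf-1* (11.7 ± 3.21 to 25.6 ± 1.53 CPM, adjusted p = 0.00351). Among the members, r with *hsp-4* was 0.67 for *ire-1* and 0.63 for *xbp-1*, and between -0.97 (*atf-6*) and -0.61 (*pdi-1*) for the other 7. In the order of all 11181 genes *ire-1* was only at rank 3798 and *xbp-1* at rank 3961. The libraries share their experiment and strain, so these correlations are a description.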

How the data were processed

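Transcript levels were measured by RNA-seq of L4 whole worms in 12 libraries, grouped by strain, batch (called experiment here) and replicate number from the labels. The authors deposited raw counts of reads per gene on WBcel235, not normalized. The submitters' processing notes name STAR 2.5.3a, Subread 1.5.2, featureCounts and edgeR 3.10.0. Treatment of strand and of reads with several matches is not given in the sources used here.

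The counts were analysed with edgeR 4.0.16 in R 4.3.3 (TMM, its default filter with a minimum count of 10 and total of 15, quasi-likelihood test, adjusted p by Benjamini-Hochberg with a threshold of 0.05), comparing each mutant with its own wild type over all genes that passed the filter. Standard errors were derived from the F statistic. CPM and RPKM were computed from the deposited counts and exon lengths. The fits were tested on simulated counts with 200 changed genes and less spread between libraries than in these data (biological coefficient of variation 0.234 and 0.242 in experiments 1 and 2). That test therefore does not show their error rate at the real spread or with as many changed genes as in *atfs-1(null)*. DESeq2 1.42.0 was an alternative, beside other scalings and filters, robust estimation, 1 fit of all 12 libraries, an unadjusted threshold, a replicate block and leaving out each library. Python 3.11 with pandas 2.3.3, numpy 2.4.6, scipy 1.17.1 and matplotlib 3.10.9 was used for tables and figures.

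In neither experiment did the libraries with the same replicate number in their labels deviate together in every pair. Correlations across genes for replicates 1, 2 and 3 were 0.55, 0.46 and 0.11 in experiment 2. There, replicate 3 of *atfs-1(et18)* was at 0.35 with wild-type replicate 1. In experiment 1 they were -0.05, 0.47 and 0.27. No pair of replicates agreed within sampling noise. TMM factors were 0.896 to 0.929 in the wild type and 1.05 to 1.11 in the mutant of experiment 1, and 0.975 to 1.02 in experiment 2.

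The members and lists were chosen with earlier results of these data known. In each list and strain, up to 3 genes are named, namely the most changed among those that passed and whose groups did not overlap, beside all members, *atfs-1*, *hsp-6* and the 5 genes most like *hsp-4* with average log2 CPM of at least 2. The names *emo-1*, *hpo-21*, *srpa-54*, *ribo-2* and *abu-3* of the lists were not matched. Positions are those of the deposited table. Of the reference genes, *hsp-60* fell in *atfs-1(null)* (log2 fold change -1.17) and did not pass in *atfs-1(et18)* (0.23), and *hsp-1* likewise (-0.42 and -0.27). Sequences and the study's measurements other than RNA-seq were not analysed here.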

Additional observations from a re-analysis of the deposited data

Results flagged for a closer look

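The change against wild type differed between the strains, by the interaction contrast, for the 24 genes given here, which are the members, *atfs-1*, *hsp-6* and the pathway genes named by rule that passed it. The pathway genes were named for their large changes in these same libraries, which favours large differences. Their values are a description and their p-values are not independent of that choice. Other genes mentioned above passed it as well, among them *hsp-60* (1.35, adjusted p = 0.000561), *uggt-1* (0.80, adjusted p = 0.00324) and the markers *ges-1* (1.42), *elt-2* (2.28), *pgl-1* (-2.05), *glh-1* (-1.14), *dpy-7* (1.75), *rab-3* (0.62), *myo-2* (-1.43) and 4 of 4 oocyte genes. All values below are log2 fold changes in *atfs-1(et18)* minus those in *atfs-1(null)*, with edgeR's adjusted p, and strain and experiment cannot be told apart in any of them.

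Among the ER response genes the differences were 1.09 for *hsp-3*, -0.69 for *hsp-4*, -0.53 for *xbp-1*, 0.97 for *pek-1*, 1.04 for *atf-6*, 0.97 for *crt-1*, 1.41 for *pdi-2* and 0.72 for *enpl-1*, with adjusted p from 0.000438 (*hsp-3*) to 0.0216 (*xbp-1*). Of the reference genes, *atfs-1* and *hsp-6* differed by 6.51 (adjusted p = 1.46e-08) and 2.41 (adjusted p = 1.22e-05), and *hsp-1* did not pass (0.10, adjusted p = 0.645).

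In the further lists the difference was 0.98 for *atf-4*, 1.01 for *pdi-6*, 0.94 for *dnj-7*, 0.66 for T14G8.3, -0.92 for *hrdl-1*, 0.64 for *trap-2*, 0.79 for *trap-4*, 0.73 for *sec-61.B* and 0.96 for *spcs-1*. Of these *spcs-1* had the smallest adjusted p (0.000263) and *trap-2* the largest (0.0118), and *trap-2* did not pass with library size scaling (0.43, adjusted p = 0.0693). *spcs-1* passed in opposite directions in the strains.

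The *abu* genes had the greatest differences among the pathway genes, at -3.60 for *abu-1*, -3.62 for *abu-11*, -3.53 for *abu-7* and -4.103 for *abu-14* (adjusted p 0.000833 to 0.00666). *abu-2* passed as well (-4.75), but it had at most 1 count in each wild-type library of experiment 1. It was too low to be tested in *atfs-1(null)* alone and entered the contrast through its levels in experiment 2. Its value is therefore not read as a difference between the strains.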

How the results depend on the processing

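Over the single genes, 1516 of 1645 recomputed values kept their direction and side of the threshold, 93 no longer passed, 36 newly passed, and none changed sign from a called value. In *atfs-1(et18)* the 2 members called, 0 higher and 2 lower, became 4 with all 12 libraries in 1 fit (4 lower), 6 with the replicate block (1 higher, 5 lower) and 5 with an unadjusted p (1 higher, 4 lower), and the 18 pathway genes became 42 with an unadjusted p. Leaving out single libraries gave 0 to 5 members called (0 to 1 higher, 0 to 4 lower) and 2 to 27 pathway genes in *atfs-1(et18)*, 8 to 10 members (1 to 3 higher, 7 in each case lower) and 42 to 61 pathway genes in *atfs-1(null)*, and 7 to 9 members with a different change in the strains. Over all genes the 1473 higher and 1175 lower in *atfs-1(et18)* became 525 to 2727 higher and 279 to 1797 lower when single libraries were left out, and 2891 and 2463 at an unadjusted p. They became 1626 and 1448 with all 12 libraries in 1 fit, and 1674 and 1528 with the replicate block. Over all genes in *atfs-1(null)*, leaving out single libraries gave 4248 to 5729 higher and 4529 to 5921 lower. For the difference between the strains it gave 3496 to 4759 genes above 0 and 2228 to 4983 below. In experiment 1 the same-numbered libraries had correlations of -0.05, 0.47 and 0.27, and replicate 1 of *atfs-1(null)* correlated best with wild-type replicate 2 (0.23). There the replicate block called 9 members in place of 10, as *xbp-1* did not pass (0.34, adjusted p = 0.0525). Over all genes it called 5382 higher and 5621 lower. The difference between the strains passed for 8 members with the block as without it, beside 4400 genes above 0 and 4580 below over all genes with the block. Depth limits the *abu* genes most, some of which had fewer than 10 counts in a library, while the lowest count of a member was 418. With 3 libraries per group, the calls of both members in *atfs-1(et18)* were lost in some fits with a single library left out. A member that missed the threshold is not shown to be unchanged.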
